A study of Mus musculus with 4 samples.

Results

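The transcripts described here are unnamed intergenic transcripts of mouse embryonic stem (ES) cells: assembled transcripts that carry no gene name in the deposited expression tables, span a locus of more than 200 bp, lie at least 5000 bp from every row with a gene name and reach a mean of at least 0.5 FPKM over 4 libraries. FPKM counts sequenced fragments per unit of transcript length and of library size. There were 2175 such transcripts among 30640 rows per table. Of these rows 7329 had no gene name, and 4581 met the conditions on name, length and distance without the condition on level. The level was the only expression value used in the choice, and it used the mean over both groups. Where the unnamed rows came from is not stated, so the presence of a row may itself depend on reads of these libraries.

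RNA sequencing was carried out on poly(A)-selected RNA from CCE cells, an ES line of strain 129SV, kept without feeder cells on gelatin in serum and leukemia inhibitory factor. One group expressed a short hairpin RNA against Tex10 (shTex10) and the control group a short hairpin RNA against luciferase (shLuci), a reporter gene from an insect. Both groups thus carried a hairpin, and each had 2 libraries. The labels do not tell whether the libraries of a group came from separate cultures, and the spread behind every p-value may therefore be technical. The series title ties Tex10 to super-enhancers, and the comparison asks which of these transcripts differ in level once Tex10 is depleted. Tex10 encodes a nuclear protein known from a complex with Pelp1 and Wdr18 that acts in ribosomal RNA processing.

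As background, RNA from outside annotated genes includes long noncoding RNAs, RNAs made at enhancers, read-through past gene ends, and copies of pseudogenes and retroviral repeats. Much of it is short-lived, because the nuclear RNA exosome degrades it, while the Integrator complex and the cleavage and polyadenylation machinery end its synthesis. In mouse ES cultures a few cells pass through a 2-cell-like state, in which Zscan4 genes, Tdpoz genes and retroviral repeats of the early embryo are transcribed.

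The transcripts were spread over every autosome and chromosome X, with 216 on chromosome 8, 206 on chromosome 12 and 25 on chromosome 19. Their loci ran from 201 to 249382 bp with a median of 1286 bp. The median distance to the nearest named row was 44137 bp, and the median of the mean levels was 0.826 FPKM, with 10% of the transcripts above 3.93 FPKM. In all, 309 transcripts shared their locus label with another row, so that 2010 distinct loci were represented and transcripts at a shared locus have no position of their own. At the edge of the level condition, XLOC_006501, XLOC_025806 and XLOC_027640 lay just inside at 0.5002, 0.5003 and 0.5009 FPKM, and XLOC_010219, XLOC_003239 and XLOC_018663 just outside at 0.4997, 0.4997 and 0.4994 FPKM. Of the 3 inside, XLOC_006501 was at 0.173 and 0.184 FPKM in shLuci against 1.03 and 0.610 FPKM in shTex10, XLOC_025806 at 0.637 and 0.587 FPKM against 0.407 and 0.369 FPKM, and XLOC_027640 at 0.462 and 0.702 FPKM against 0.554 and 0.287 FPKM. At the edge of the distance condition, XLOC_018234, XLOC_019651 and XLOC_019058 lay just inside, at 5021 bp from St7l, 5042 bp from 1700013G24Rik and 5062 bp from Tmem88b. XLOC_011850, XLOC_013346 and XLOC_030416 lay just outside, at 4993 bp from Tgif1, 4977 bp from Impact and 4971 bp from 6720401G13Rik.

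The word intergenic holds for the names in the tables, on mouse build mm9. RefSeq (GRCm38.p6), used here only for names and gene order, lists at least 1 long noncoding RNA between the same flanking named genes for 1528 transcripts. A further 376 had a pseudogene but no long noncoding RNA between their flanks, 53 had only other genes, and 184 had none. For 34 the flanking genes could not both be matched. No transcript was matched to a RefSeq gene itself, because the builds differ.

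Tex10 stood at 77.3 and 82.1 FPKM in the shLuci libraries and at 11.6 and 13.4 FPKM in the shTex10 libraries, so that 15.7% of the control mean was left (log2 change -2.58, SE 0.10, adjusted p = 0.000807, limma). ES cell markers (Pou5f1, Nanog, Sox2, Zfp42, Esrrb, Dppa5a and Utf1) were present in every library, with summed levels of 4838 to 5260 FPKM in shLuci and 4030 to 4385 FPKM in shTex10, and 5 of the 7 fell. Trophectoderm markers summed to 134 FPKM in both shLuci libraries and to 288 and 299 FPKM in shTex10, and all 3 that were tested (of 4 listed) rose. Fibroblast markers summed to 65.2 to 75.05 and 88.2 to 97.5 FPKM (3 of 8 under 1 FPKM in every library), and endothelial, blood and muscle markers to 23.4 to 25.7 and 42.1 to 46.1 FPKM (4 of 5 under 1 FPKM). The neuroectoderm pair Pax6 and Sox1 summed to 6.48 to 7.22 FPKM in shLuci and to 0.777 to 0.817 FPKM in shTex10, while primitive endoderm and mesoderm markers stayed at a sum of at most 2.14 FPKM. The part of these markers in the results below was not tested, and in bulk RNA fewer cells of a type and less RNA per cell cannot be told apart. From the spacing of low FPKM values, the libraries held about 37100000 and 34900000 reads (shLuci) and 30900000 and 34100000 reads (shTex10).

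Among the 2175 transcripts the median FPKM was 0.575 and 0.552 in the shLuci libraries and 1.19 and 1.11 in the shTex10 libraries. Of these, 1177 and 1165 stood at or above 0.5 FPKM in the control libraries, against 1895 and 1848 in the depleted ones. These values are a description, since the condition on mean level chose the transcripts from the same libraries. Among the 4581 intergenic rows without a condition on level, 1602 and 1444 reached 0.5 FPKM in shLuci and 3060 and 2904 in shTex10 (exact two-sided permutation p = 0.333, the smallest that 2 against 2 libraries allow). A value of 0 was listed for 83 and 74 of the 2175 transcripts in the shLuci libraries and for 15 and 21 in the shTex10 libraries.

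In the fit across 16754 named genes and unnamed rows (limma, Benjamini-Hochberg adjusted p under 0.05), 1041 of the 2175 transcripts rose in shTex10, 199 fell and 935 did not pass the threshold. As background, 47.2% of all features tested passed, 23.1% as higher and 24.1% as lower, while the shares among the transcripts were 47.9% and 9.15%. The median log2 change was 0.51 for the transcripts and -0.06 for all features tested. The shTex10 values both exceeded the 2 shLuci values in 1311 transcripts, against 34.6% of all features, and both fell short of them in 393, against 41% of all features. The groups overlapped in 471.

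The condition on mean level enters these counts. There were 948 transcripts that reached 0.5 FPKM in the shTex10 mean only, and their direction was fixed by that (742 passed the test as higher, 0 as lower). Another 239 reached it in the shLuci mean only (85 lower, 0 higher). The remaining 988 reached it in both groups, and of these 299 rose (30.3%), 114 fell (11.5%) and 575 did not pass, with a median log2 change of 0.11. Without any condition on level, 1800 of 4580 intergenic rows above 0 rose (39.3%) and 304 fell (6.64%), where 18.3% and 14.2% of all features in that fit did so. Higher calls thus outnumbered lower ones among the transcripts that reached the level in both groups and among all intergenic rows, while in the sets that reached it in 1 group only the direction followed from the condition. If the rows were assembled from these libraries, all intergenic rows would carry a choice as well, and its part was not tested. The plot of group means shows the sets split by level.

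**Figure D1:**
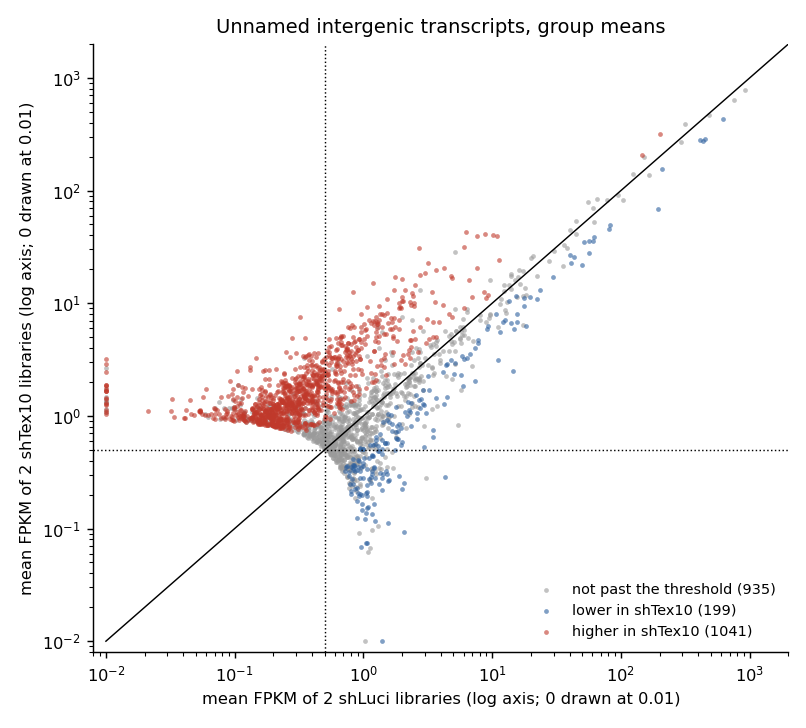
Mean FPKM of the 2 shLuci libraries (x, log axis) against the mean of the 2 shTex10 libraries (y, log axis) for the 2175 unnamed intergenic transcripts; the diagonal marks equal means and dotted lines mark 0.5 FPKM. Over all levels 1041 points are higher (red). Points above the diagonal prevail at low level, while at 50 FPKM and more 9 of 26 points are lower (blue) and 2 are higher. The condition on mean level fixed the direction of points that met it through 1 group only.

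Unnamed rows that met the same conditions on length and level, but lie within named genes or less than 5000 bp from one, give the nearest comparison. Of 1481 such rows 326 rose (22.01%) and 179 fell (12.1%), with a median log2 change of 0.02. Of 13098 named genes 2500 rose (19.1%) and 3660 fell (27.9%), with a median of -0.11. These classes were set side by side as a description, with no test, since neighbouring transcripts are not independent.

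The share of risers grew with distance from named genes. Between 5000 and 10000 bp from the nearest named row, 93 of 293 transcripts rose (31.7%) and 43 fell (14.7%). Between 20000 and 50000 bp, 233 of 517 rose (45.1%) and 62 fell (11.99%). Between 200000 and 500000 bp, 190 of 275 rose (69.1%) and 10 fell (3.64%). Beyond 500000 bp the share of risers was lower again, with 77 of 137 (56.2%), and 2 fell. Median log2 changes in these 4 classes were 0.04, 0.42, 0.79 and 0.72. Among transcripts at 0.5 FPKM or more in both groups the climb was smaller and uneven, from 31 of 144 (21.5%) in the nearest class to 41 of 90 (45.6%) at 200000 to 500000 bp and 13 of 52 (25%) beyond. Without a condition on level it ran from 161 of 616 (26.1%) to 328 of 584 (56.2%) and 154 of 347 (44.4%).

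**Figure D2:**
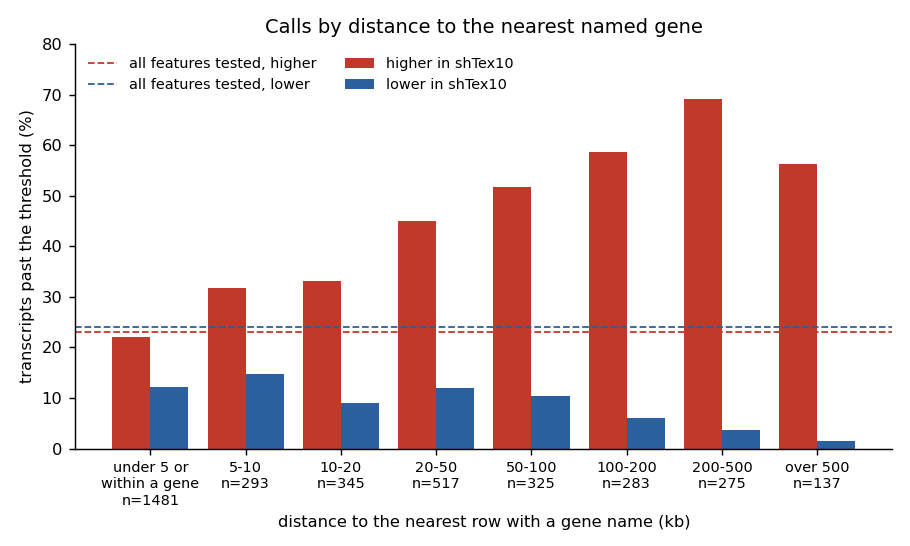
Percentage of unnamed transcripts past the threshold (y) by distance to the nearest row with a gene name in kb (x), higher in shTex10 in red and lower in blue, with the number of transcripts under each class; dashed lines give the shares over all 16754 features (23.1% and 24.1%). The red bars climb from 31.7% in the class nearest to a gene beyond 5 kb to 69.1% at 200000 to 500000 bp.

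Locus length and level went along with the direction too. Risers made up 75 of 238 transcripts with loci up to 400 bp (31.5%), 216 of 329 with loci of 2000 to 5000 bp (65.7%) and 77 of 189 with loci over 20000 bp (40.7%). By level, 249 of 436 transcripts between 1 and 2 FPKM rose (57.1%) and 39 fell. Between 10 and 50 FPKM 19 of 74 rose and 21 fell. Above 50 FPKM 2 of 26 rose and 9 fell. The 2 risers, named after their values were seen, were XLOC_020137 near Gm13238 (184 and 219 FPKM in shLuci, 296 and 335 FPKM in shTex10) and XLOC_026889 near Zfp868 (161 and 133 FPKM, then 202 and 215 FPKM). By chromosome the share of risers ran from 36% (9 of 25, chromosome 19) to 68.75% (77 of 112, chromosome 3).

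Summed FPKM gives another picture, because it is ruled by a few short loci. Transcripts with loci up to 400 bp summed to 6311 and 8130 FPKM in shLuci and to 6386 and 6614 FPKM in shTex10, which overlap. The others summed to 2759 and 2804 FPKM in shLuci and to 4286 and 4203 FPKM in shTex10. Of the FPKM over all rows longer than 200 bp, the 2175 transcripts held 1.45% and 1.69% in shLuci and 1.97% and 1.96% in shTex10 (a description, for the same reason). Over rows longer than 1000 bp the shares were 0.271% and 0.262%, then 0.540% and 0.522%.

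Among transcripts past the threshold whose groups did not overlap, the largest fitted rise was seen inside the Zscan4 gene cluster. XLOC_016703 near Macrod2, named after its values were seen, had a slightly larger fitted log2 change of 3.12 but did not pass (0 and 10.3 FPKM in shLuci against 31.5 and 25.4 FPKM in shTex10, SE 1.13, adjusted p = 0.0777, limma). XLOC_025698 (mm9, chr7:11649945-11650850) lies between Zscan4c and Zscan4d, members of a family of zinc finger genes transcribed in 2-cell embryos. Its level was 2.97 and 2.45 FPKM in shLuci and 31.3 and 30.1 FPKM in shTex10, an 11.3-fold difference of means (log2 change 3.10, SE 0.10, adjusted p = 0.000773, limma). The depleted libraries agreed closely and lay far above both controls. RefSeq lists only pseudogenes between the same flanks, among them Zscan4-ps1, and reads from near-identical Zscan4 copies could have been divided between rows, so the level of this row is uncertain.

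Of the other 7 transcripts with the largest rises, 3 had loci of 6740 to 10970 bp and close replicates. XLOC_013703 (chr19:23737474-23744214, 10172 bp from 1700028P14Rik) was at 1.66 and 1.88 FPKM in shLuci and at 16.8 and 17.1 FPKM in shTex10 (log2 change 2.70, SE 0.09, adjusted p = 0.000773). XLOC_013301, between Setbp1 and Pard6g, was at 6.26 and 6.18 FPKM and then at 44.5 and 41.9 FPKM (log2 change 2.61, SE 0.08, adjusted p = 0.000773). XLOC_028434 (chr9:14246999-14255683), 11341 bp from Kdm4d, a gene for a histone H3 lysine demethylase, was at 2.03 and 1.96 FPKM and then at 16.02 and 16.99 FPKM (log2 change 2.55, SE 0.09, adjusted p = 0.000773). In each of these the shTex10 libraries were nearly equal to each other and 6.94-fold to 9.57-fold above the control mean. RefSeq lists Kdm4dl, a pseudogene, as the only gene between the flanks of XLOC_028434, and Gm6563, a pseudogene, as the only gene between those of XLOC_013703.

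XLOC_018270 (locus chr3:120495815-120503628, shared with another row) lies in a gene desert between Ptbp2 and Rwdd3 and was at 1.56 and 0.831 FPKM in shLuci against 15.9 and 14.4 FPKM in shTex10 (log2 change 2.90, SE 0.18, adjusted p = 0.00112). XLOC_000658 (chr1:3061480-3065281), 139281 bp from Xkr4, was at 0.101 and 1.56 FPKM against 10.6 and 14.8 FPKM (log2 change 3.01, SE 0.43, adjusted p = 0.00594). Here the controls were far from each other, yet both lay below both depleted libraries. XLOC_001323 (chr1:3977350-3977593), a 243-bp locus between Xkr4 and Rp1, was listed at 0 and 0.641 FPKM in shLuci and at 7.23 and 7.87 FPKM in shTex10 (log2 change 2.74, SE 0.25, adjusted p = 0.00219). These values stand for 0 and 1 reads against 10 and 12 reads, so the size of the difference is poorly known. XLOC_001323 met the level through shTex10 only, which fixed its direction. XLOC_015226 (chr2:153545715-153546238), between the DNA methyltransferase gene Dnmt3b and Mapre1, was at 1.29 and 0 FPKM against 4.56 and 13.2 FPKM (log2 change 2.56, SE 0.59, adjusted p = 0.0219). The depleted libraries were apart from the controls but also from each other, and the SE of this change was the largest of the 8. With no filter on low values its adjusted p was 0.0507, which misses the threshold. RefSeq places the pseudogene Dnmt3b-ps1 between the same flanks.

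**Figure D3:**
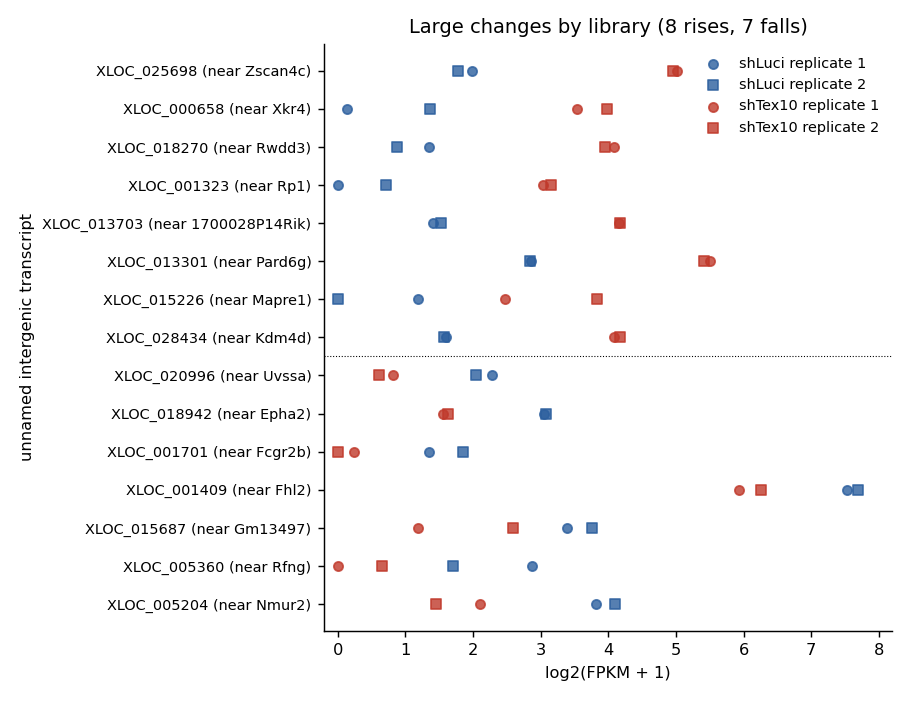
Level as log2(FPKM + 1) (x) in each library for the 8 unnamed intergenic transcripts with the largest rise (top) and 7 of the 8 with the largest fall (bottom) among those past the threshold whose groups did not overlap, each with its nearest named gene; blue marks shLuci and red shTex10, circles replicate 1 and squares replicate 2. XLOC_025698 near Zscan4c moves from 2.97 and 2.45 FPKM to 31.3 and 30.1 FPKM, and XLOC_005204 near Nmur2 from 13.1 and 16.1 FPKM to 3.30 and 1.75 FPKM.

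Some of the largest falls had replicates close to each other. XLOC_018942 (locus chr4:140846100-140851846, shared with another row) lies 5289 bp from Epha2, which encodes an ephrin receptor, and was at 7.30 and 7.46 FPKM in shLuci against 1.96 and 2.097 FPKM in shTex10 (log2 change -1.47, SE 0.09, adjusted p = 0.00103). XLOC_020996 (locus chr5:33819492-33878237, also shared), between Uvssa and Fam53a, was at 3.87 and 3.11 FPKM against 0.762 and 0.532 FPKM (log2 change -1.45, SE 0.14, adjusted p = 0.00235). The replicates of both transcripts were close, and RefSeq lists the homeobox gene Nkx1-1 as the only gene between the flanks of XLOC_020996. XLOC_001409 (chr1:43245893-43246160), 25087 bp from Fhl2, had the highest level of the 8 and fell from 183 and 205 FPKM to 60.2 and 75.8 FPKM (log2 change -1.51, SE 0.14, adjusted p = 0.0023).

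The other 4 large falls rested on short loci, few reads or scattered replicates. XLOC_005204 (chr11:56274949-56275279), a 330-bp locus between Nmur2 and Gria1, had the largest fitted fall, from 13.1 and 16.1 FPKM to 3.30 and 1.75 FPKM (log2 change -2.18, SE 0.24, adjusted p = 0.00339). XLOC_015687 (chr2:51294226-51303189), between Gm13497 and Tas2r134, was at 9.51 and 12.5 FPKM against 1.28 and 5.02 FPKM (log2 change -1.69, SE 0.47, adjusted p = 0.0385). The depleted libraries of XLOC_015687 were far from each other, and its adjusted p rose to 0.0765 without shLuci replicate 2, to 0.0783 with no filter on low values and to 0.0603 with equal totals over named genes. XLOC_005360 (chr11:120624695-120624947), between Cbr2 and Rfng, was listed at 6.35 and 2.25 FPKM against 0 and 0.575 FPKM (adjusted p = 0.0209), which stands for 12 and 4 reads against 0 and 1. XLOC_001701 (chr1:172916250-172916639), between Fcgr2b and Fcgr4, was at 1.54 and 2.62 FPKM against 0.185 and 0 FPKM (adjusted p = 0.00564), or 10 and 16 reads against 1 and 0. In both of these the groups did not overlap, and the counts are too low to give a fold. Both also met the level through shLuci only, which fixed their direction.

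The 6 transcripts of the highest level all had short loci, of 201 to 389 bp, and none rose. XLOC_021561 (chr5:5781496-5781697), 32154 bp from Steap1, led with 676 and 1178 FPKM in shLuci and 725 and 828 FPKM in shTex10 (adjusted p = 0.570), so that the groups overlapped. A 201-bp locus leaves few positions for a fragment, an effective length of 20.8 bp under the fragment model used here, so such an FPKM stands for far fewer reads than in a long transcript. XLOC_016783 near Fam209 was at 328 and 638 against 471 and 462 FPKM, and XLOC_025898 near 1700026D08Rik at 798 and 723 against 618 and 652 FPKM (adjusted p = 0.0749). The other 3 fell: XLOC_019964 near Cdk5rap2 from 415 and 450 to 275 and 275 FPKM (adjusted p = 0.00489), XLOC_010598 near Cyyr1 from 480 and 414 to 307 and 271 FPKM (adjusted p = 0.0123) and XLOC_012740 near Vit from 600 and 631 to 450 and 415 FPKM (adjusted p = 0.01002). RefSeq lists pseudogenes between the flanks of all 6, among them Hdac1-ps for XLOC_012740 and Tubb4b-ps1 for XLOC_021561, and reads shared with the parent genes of such copies would make these levels uncertain. The falls of XLOC_010598 and XLOC_012740 missed the threshold once every library was given an equal total over named genes (adjusted p = 0.0640 and 0.0586). Both calls were also lost without shTex10 replicate 2 (adjusted p = 0.0544 and 0.0638), and that of XLOC_012740 without shLuci replicate 2 (adjusted p = 0.0501).

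A long transcript of high level, named after its values were seen, was XLOC_007047 (locus chr13:98222210-98289047, shared by 5 rows) between Enc1 and Gm5086. It fell from 61.8 and 62.7 FPKM in shLuci to 37.1 and 39.9 FPKM in shTex10 (log2 change -0.68, SE 0.08, adjusted p = 0.00416). The replicates were close to each other in both groups. RefSeq lists Lncenc1, a long noncoding RNA known from naive ES cells, among the genes between these flanks.

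The longest locus label, chr12:17902012-18151394 between Hpcal1 and 5730507C01Rik, spans 249382 bp and is shared by 17 rows. Of the 4 transcripts named for it, XLOC_006249 rose from 0.560 and 0.315 FPKM to 1.24 and 1.54 FPKM (adjusted p = 0.0119). It met the level through shTex10 only, which fixed its direction. XLOC_006255 stayed between 0.492 and 0.822 FPKM in all libraries (adjusted p = 0.905). XLOC_006254 was at 0.795 and 4.23 FPKM against 0.953 and 3.89 FPKM, and XLOC_006256 at 0.619 and 2.11 FPKM against 0 and 0.673 FPKM (adjusted p = 0.989 and 0.162). In the last pair replicate 2 was the higher in both groups.

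Many of the transcripts lay close to each other. Joining transcripts that lay within 10000 bp of each other gave 1320 clusters, of which 883 held a single transcript and 437 held 1292 transcripts. Over all 1320, single transcripts included, at least 1 call higher and none lower was found in 633 clusters, the reverse in 161, no call in 524 and calls both ways in 2. Every transcript rose in 170 of the 437 clusters and fell in 21. Of 48 clusters with 5 or more transcripts, 15 rose throughout, 0 fell throughout and 10 had no call. Transcripts of a cluster may be pieces of one RNA, so that these counts are not independent. The condition on mean level enters these counts too, since it fixed the direction of transcripts that met it through 1 group only.

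The largest cluster lay on chr8:80537773-80656088 between Ednra and Ttc29 and held 23 transcripts at 8 loci, of which 15 rose and none fell. Their summed level was 12.4 and 9.45 FPKM in shLuci and 29.7 and 28.0 FPKM in shTex10. Its strongest riser was XLOC_027473, with 0.226 and 0.481 FPKM against 3.52 and 3.19 FPKM (log2 change 1.69, adjusted p = 0.00162). The second, on chr7:47076670-47124805 between Zfp939 and 4933402C06Rik, held 15 transcripts and all rose, with summed levels of 5.21 and 3.75 FPKM against 26.5 and 21.9 FPKM. RefSeq places zinc finger gene Zfp619 and several pseudogenes in that interval. The third, on chr11:40362663-40438521 between Gm12130 and Mat2b, held 14 transcripts, of which 13 rose, and summed to 3.17 and 3.81 FPKM against 17.4 and 15.9 FPKM. In all 3 clusters both depleted libraries lay above both controls. Every transcript of the third cluster had a shLuci mean below 0.5 FPKM, as did most of the first. In the second, all but XLOC_025783 and XLOC_025790 did. Such transcripts met the level through shTex10 only, which fixed their direction, and the cluster sums share this limit.

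Large clusters did not all behave alike. Between 1810013L24Rik and Grin2a 13 transcripts gave no call, with sums of 32.2 and 30.8 FPKM against 42.3 and 34.8 FPKM. Between 9130015A21Rik and Agr3 all 9 rose, with a median log2 change of 1.44. The clusters with calls both ways were the one at the long chr12 locus, where XLOC_006249 rose and XLOC_006262 fell, and one between Sptssb and Otol1 on chr3. In the latter XLOC_016997, XLOC_018115 and XLOC_018117 rose while XLOC_018116 fell from 5.12 and 5.20 FPKM to 2.93 and 2.90 FPKM (adjusted p = 0.00465). These were named after their values were seen. The direction of XLOC_006249 was fixed by the condition on level, which it met through shTex10 only.

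**Figure D4:**
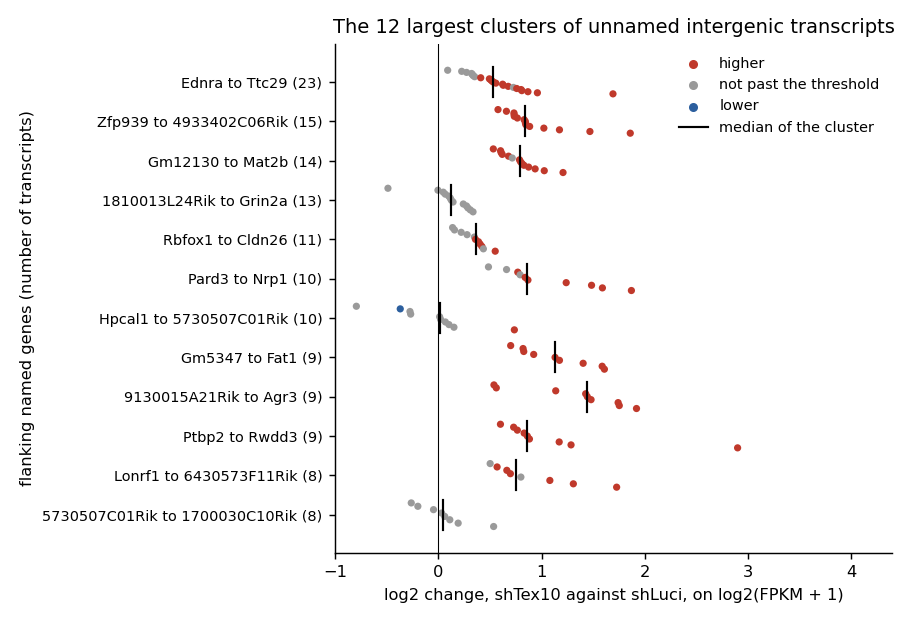
Log2 change of shTex10 against shLuci (x) for each transcript of the 12 largest clusters (y, flanking named genes and number of transcripts); red points rose, blue fell, grey did not pass the threshold, and the black bar is the median of the cluster. The clusters at Zfp939 (15 transcripts), Gm5347, 9130015A21Rik and Ptbp2 (9 each) lie wholly to the right of 0 with every point red, while that at 1810013L24Rik (13) shows no call. The condition on mean level enters these directions.

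Within 50000 bp of a listed pluripotency gene there were 23 transcripts, of which 5 rose, 7 fell and 11 did not pass, with a median log2 change of -0.41 and 16 below 0. The shares past the threshold, 5 and 7 of 23, were near those over all features (23.1% higher and 24.1% lower). The 41 listed genes themselves gave 6 higher and 26 lower calls (median -0.47). The lists were drawn up with earlier results of these data known. Of the 4 transcripts nearest to such a gene, only XLOC_020637 (chr5:120108521-120109393), 9349 bp from the T-box gene Tbx3, passed the test, with 0.943 and 0.662 FPKM in shLuci against 0.121 and 0.282 FPKM in shTex10 (log2 change -0.58, adjusted p = 0.0235). That call was lost without shLuci replicate 1 (adjusted p = 0.0900) and without shTex10 replicate 1 (adjusted p = 0.0613). XLOC_020637 met the level through shLuci only, which fixed its direction. XLOC_003041, 8967 bp from the DNA dioxygenase gene Tet1, was at 0.881 and 1.27 FPKM against 0.829 and 0.342 FPKM (adjusted p = 0.151). XLOC_011237 by Dppa2 and XLOC_011236 by Dppa4 overlapped between groups (adjusted p = 0.160 and 0.436).

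Other transcripts near these genes are named after their values were seen. At Lefty1, a Nodal antagonist, XLOC_001718 (chr1:182855155-182855537) fell from 1.12 and 2.05 FPKM to 0.192 and 0.349 FPKM and XLOC_001260 (chr1:182851116-182855074) from 1.39 and 2.34 FPKM to 0.541 and 0.719 FPKM (adjusted p = 0.0150 and 0.0234). XLOC_001718 met the level through shLuci only, which fixed its direction, and its values stand for 7 and 12 reads against 1 and 2. Lefty1 itself was at 99.1 and 84.4 FPKM and then at 66.7 and 51.4 FPKM. XLOC_023456, 14035 bp from Nanog, was at 3.37 and 1.63 FPKM against 1.47 and 0.998 FPKM (adjusted p = 0.125), and XLOC_012651, 14661 bp from Pou5f1, at 1.33 and 0.256 FPKM against 0.433 and 0.262 FPKM (adjusted p = 0.395). Neither could be told from the control at 18 to 23 reads over the 4 libraries. The 5 that rose were XLOC_005406 near Mycn (0.866 and 0.751 FPKM against 2.99 and 3.11 FPKM, adjusted p = 0.00177) and 4 in 1 cluster between Sgk1 and 4930444G20Rik (XLOC_002913 to XLOC_002916, log2 changes 0.45 to 1.00).

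Near genes of the 2-cell-like state 6 of 7 transcripts rose and 1 fell, with a median log2 change of 1.16, and 19 of the 20 listed genes tested rose. Over all features 23.1% rose. The 6 risers had shLuci means below 0.5 FPKM and met the level through shTex10 only, which fixed their direction. XLOC_023590 and XLOC_025702, which share the locus chr7:11761425-11773961 with another row at 9928 bp from Zscan4d, were at 0.397 and 0.513 FPKM against 2.36 and 2.14 FPKM and at 0.241 and 0.0854 FPKM against 1.93 and 1.48 FPKM (adjusted p = 0.00216 and 0.00351). XLOC_017678 (chr3:93432172-93437881), 17582 bp from Tdpoz2, rose from 0.358 and 0.396 FPKM to 3.16 and 3.04 FPKM (log2 change 1.58, adjusted p = 0.00103). Named after its values were seen, XLOC_018194 in the same Tdpoz region rose from 0.304 and 0.297 FPKM to 3.64 and 3.59 FPKM (log2 change 1.83, adjusted p = 0.000905). The exception was XLOC_018190 (chr3:93503579-93504335), 23374 bp from Tdpoz1, which fell from 4.13 and 4.23 FPKM to 2.57 and 2.33 FPKM (log2 change -0.59, adjusted p = 0.0073). Each of the 7 had groups that did not overlap. Over all features both shTex10 values lay above both shLuci values in 34.6% and below them in 41%. Tdpoz and Zscan4 genes exist in near-identical copies, so the division of reads among rows is uncertain here as well.

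Near lineage regulators 1 of 7 transcripts rose, 5 fell and 1 did not pass, where 23.1% of all features rose and 24.1% fell. The riser was XLOC_015226 by Dnmt3b, whose call was lost with no filter on low values, as given above. XLOC_027231 (chr8:12474710-12476343), 37978 bp from Sox1, a neural transcription factor gene, fell from 0.779 and 1.07 FPKM to 0.182 and 0.207 FPKM (log2 change -0.68, adjusted p = 0.0106). It met the level through shLuci only, which fixed its direction, and other fallers near lineage regulators did so too. XLOC_005694, 30037 bp from Gsc, fell from 2.36 and 2.00 FPKM to 1.11 and 0.891 FPKM (adjusted p = 0.01001), and XLOC_005693 beside it was at 1.37 and 0.882 FPKM against 0.630 and 0.601 FPKM (adjusted p = 0.0816). Sox1 was at 0.685 and 0.653 FPKM in shLuci and at 0.142 and 0.107 FPKM in shTex10, under the level tested. Near p53 targets there were 2 transcripts and both rose, where 23.1% of all features did. Both met the level through shTex10 only, which fixed their direction. XLOC_001046 (chr1:135956705-135957451), 13990 bp from Btg2, was at 0.401 and 0.149 FPKM against 0.957 and 1.52 FPKM (adjusted p = 0.0195), and XLOC_003019, 39703 bp from Ddit4, at 0 and 0.158 FPKM against 2.13 and 0.806 FPKM (adjusted p = 0.0268), where the control values stand for 0 and 1 reads. The call of XLOC_001046 was lost without shLuci replicate 2 (adjusted p = 0.0542) and after quantile normalization (adjusted p = 0.0551), and that of XLOC_003019 without shLuci replicate 1 (adjusted p = 0.0580) and with no filter on low values (adjusted p = 0.0544). Btg2 (19.3 and 18.3 FPKM against 71.8 and 70.8 FPKM) and Ddit4 (44.9 and 36.4 FPKM against 234 and 206 FPKM) rose too.

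**Figure D5:**
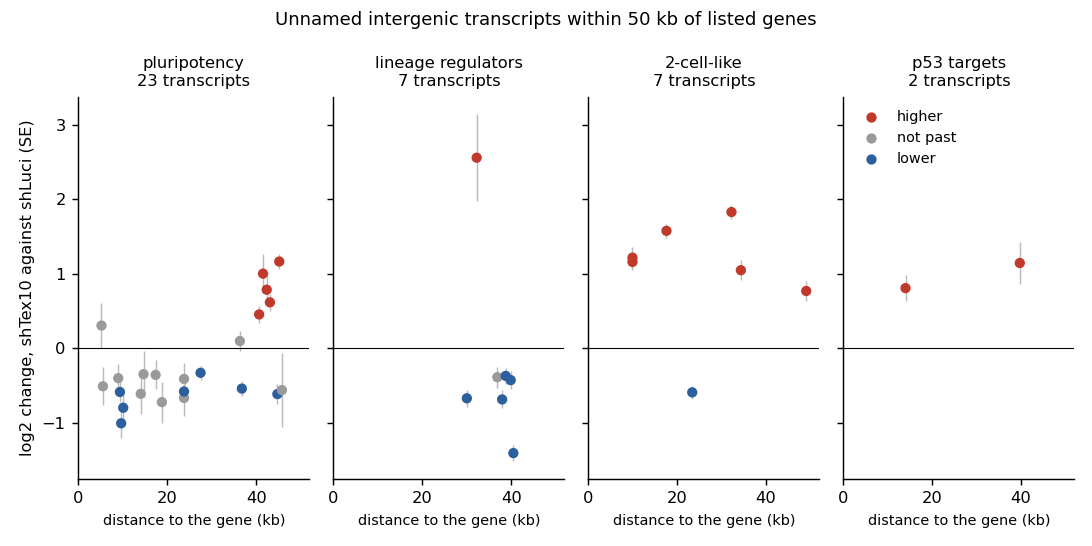
Log2 change of shTex10 against shLuci (y, bars give the SE) by distance in kb to the listed gene (x) for unnamed intergenic transcripts within 50 kb of pluripotency genes, lineage regulators, 2-cell-like genes and p53 targets; red rose, blue fell and grey did not pass the threshold. Near pluripotency genes 16 of 23 points lie below 0, while near 2-cell-like genes 6 of 7 rose. These 6 and both near p53 targets met the level through shTex10 only, which fixed their direction. Some fallers near pluripotency genes and lineage regulators met it through shLuci only.

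Over the 1435 transcripts whose nearest named gene was itself tested (708 genes), the log2 changes of transcript and gene had a Pearson r of 0.20 and a Spearman rho of 0.19. The points share libraries, and several share a gene, so this is a description. Within 20000 bp rho was 0.32 over 509 transcripts, and beyond 100000 bp it was -0.06 over 373. Within 20000 bp, 65 of 116 transcripts rose where the gene rose (56.0%) and 8 fell, while 30 of 135 rose where the gene fell (22.2%) and 36 fell. Beyond 100000 bp, 60 of 114 rose where the gene rose (52.6%) and 46 of 72 where it fell (63.9%). At that distance the share of risers was no lower beside falling genes than beside rising ones. Over all features 23.1% rose and 24.1% fell. The condition on mean level enters these counts and correlations. It fixed the direction of transcripts that met it through the depleted group only or the control group only. Its part was not tested, since transcripts that reached the level in both groups were not counted apart here.

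Genes known to act on RNA from outside annotated genes were described from lists drawn up with earlier results of these data known. Whether their levels bear on the transcripts was not tested. Of 22 genes of the nuclear RNA exosome and its adaptors 17 fell and 0 rose (median log2 change -0.54). At an unadjusted p under 0.05 limma gave 17 lower and 0 higher. As background, 24.1% of all features and 27.9% of named genes fell at the adjusted threshold. Exosc4, a subunit of the exosome core, was at 23.9 and 22.1 FPKM in shLuci and at 11.9 and 11.1 FPKM in shTex10 (adjusted p = 0.00257), and Zcchc8, a subunit of the nuclear exosome targeting complex, at 15.5 and 16.8 FPKM against 9.42 and 10.3 FPKM (adjusted p = 0.00577). Of 16 Integrator genes 9 fell and 1 rose (median -0.40), the riser being Ints1. Of 24 genes of cleavage, polyadenylation and termination 16 fell and 0 rose (median -0.42; at an unadjusted p under 0.05 limma gave 17 lower and 0 higher), with Cpsf4 at 69.0 and 65.3 FPKM against 34.6 and 35.7 FPKM (adjusted p = 0.00209). Of 17 named long noncoding RNAs tested 6 rose and 4 fell, and their median was 0.03. Neat1, a nuclear scaffold RNA, rose from 52.2 and 42.2 FPKM to 137 and 123 FPKM (adjusted p = 0.0022), while Malat1 was at 222 to 244 FPKM in all libraries (adjusted p = 0.734).

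Depth limited single values at the low end. For 1200 transcripts whose length equals their locus, reads could be recovered from the FPKM, and the median was 12 reads per library (0 to 127) and 50 over the 4 libraries. Of these transcripts 528 rose (44%) and 83 fell (6.92%). With at least 100 recovered reads, 174 of 307 rose and 17 fell. Only 2 transcripts were listed at 0 in both shTex10 libraries, XLOC_007781 and XLOC_014336, against 26 in both shLuci libraries. A transcript at 0 in both libraries of a group met the level through the other group only, so the condition enters this contrast.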

How the data were processed

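The authors deposited 1 table per library with an FPKM per row, made with TopHat2 2.0.10, Bowtie2 2.1.0 and Cufflinks 2.1.1 on mm9, per the submitters' processing notes. How these tools were set, which annotation was used, where the unnamed rows came from and whether strand was kept is not stated in the labels or file headers. Each library has its own table, so replicates were not pooled. FPKM divides by mapped fragments, so abundant features shift all others, and short loci take large values.

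Libraries were grouped by the hairpin in the labels. Features were named genes (rows of the same name summed) and unnamed rows with a locus over 200 bp, at a mean of at least 0.5 FPKM: 13098 genes, 1481 unnamed rows within or near genes and 2175 intergenic transcripts. The 300 rows of at most 200 bp stayed out. log2(FPKM + 1) was fitted with limma 3.58.1 in R 4.3.3 (eBayes with trend, no block), two-sided, with Benjamini-Hochberg adjustment over all 16754 features at 0.05. The fit was first tested on simulated data. Fold changes on this scale understate the change of low rows. Tables were handled in Python 3.11.15 with pandas 2.3.3, and exact permutation tests used SciPy 1.17.1.

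Reads were recovered by multiplying FPKM by an effective length from a normal fragment length (mean 200 bp, SD 80 bp, 100 to 440 bp). In this way 98.0% to 98.5% of values under 20 reads came out whole within 0.05, where 10% would by chance. It was used as a description and no count model was fitted.

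The members and gene lists were chosen with earlier results of these data known. By rule the text names Tex10, the 8 largest changes in each direction past the threshold with groups apart, the 6 highest levels, the 4 longest loci, up to 4 transcripts nearest to each neighbour list, the 3 largest clusters and transcripts at the edges of the rule. Others are marked. 1 of the 8 largest falls is not reported here. Replicate numbers were not shown to pair libraries: the deviations of same-numbered libraries had r = 0.20 over features, with only 2 pairs and no label. Alternatives were pseudocounts, level, length and distance conditions, scalings, eBayes options, a replicate block and leaving out each library.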

Additional observations from a re-analysis of the deposited data

How the results depend on the processing

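More transcripts rose than fell under every alternative tried. Leaving out each library in turn gave 895 to 1077 higher and 162 to 192 lower calls, median log2 changes of 0.46 to 0.53, 5584 to 5925 calls over the whole table, 31 to 33 of the named features past the threshold, and 0.272 to 0.515 percentage points for the difference in the share of FPKM. With 1 library left in a group, that library is assumed to vary like the others. The replicate block gave 1107 higher and 244 lower calls and moved neither count by over 1.5 times. Over the whole table it raised the calls from 7905 to 10706 (4745 higher and 5961 lower). It brought XLOC_006256, XLOC_011237 and XLOC_025898 past the threshold, and took no named feature below it. The log2 scale set the size of the median, which was 0.70 with a pseudocount of 0.5 and 1.02 with 0.1.

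Scaling moved the split. Equal totals over named genes gave 1094 higher and 131 lower calls with a median of 0.62, and equal totals over all rows longer than 200 bp a median of 0.61. They shifted the median of all features by 0.17 and 0.16 and turned its split from 3867 higher and 4038 lower to 4909 and 2086, or 4822 and 2141. Median scaling gave a median of 0.46, and quantile normalization gave 0.32 with 823 higher and 313 lower calls. Relative to the median of all features the members' median was 0.57 as reported, 0.50 with equal totals over named genes and 0.40 after quantile normalization.

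Counts shrank with the set. A mean of at least 1 FPKM for every feature gave 438 higher and 108 lower (median 0.57), and the same condition on members alone 436 and 108 (0.57). At least 50000 bp from named rows there were 601 and 63 (0.71), at least 10000 bp away the median was 0.56, and loci over 1000 bp gave 676 and 109 (0.56), with a difference in share of 0.265 percentage points over such rows. A fit of unnamed rows alone held 1417 calls in all. Chosen after seeing the data, 1 member per cluster gave 609 higher, at least 100 recovered reads 174 and 17 (0.58), group means of at least 0.5 FPKM in both groups 299 and 114 (0.11), and all intergenic rows without a condition on level 1800 and 304 (0.41).

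Of the 46 features named and tested 33 passed, and 8 of these lost the call in at least 1 of 16 settings. Directions turned only for features that did not pass as reported. XLOC_021561 turned to 0.023 and 0.013 with equal totals over named genes and over all rows, to 0.16 after quantile normalization and ranged from -0.60 to 0.20 when libraries were left out. Median scaling turned XLOC_006254 to -0.038, XLOC_006255 to -0.029 and XLOC_016783 to -0.022, and quantile normalization turned the first 2 to -0.15 and -0.20 and XLOC_025898 to 0.12. With libraries left out XLOC_006254 ranged from -0.76 to 0.78, XLOC_006255 from -0.12 to 0.17, XLOC_016783 from -0.45 to 0.51, XLOC_018234 from -1.01 to 0.025 and XLOC_011236 from -0.016 to 0.63. Calls appeared without shLuci replicate 1 for XLOC_006256, XLOC_018234 and XLOC_021561 (adjusted p = 0.0299, 0.0147 and 0.0322), without shLuci replicate 2 for XLOC_005693, XLOC_011237 and XLOC_016783 (adjusted p = 0.0428, 0.0389 and 0.0374), and without shTex10 replicate 1 for XLOC_003041 (adjusted p = 0.0402). The cause of these changes was not tested. With 2 libraries per group and 12 reads per library in the median transcript, small changes in single transcripts were not detectable.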
